A study of Mus musculus with 4 samples.

Results

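The Fc gamma receptors, their shared signalling chain and the neonatal Fc receptor were followed in mouse bone marrow cells that signalled from FLT3-ITD or carried an empty vector. The members are 6 genes, Fcgr1, Fcgr3, Fcgr4, Fcer1g, Fcgr2b and Fcgrt, and every probe whose platform gene symbol is one of these was taken. That gave 8 probes of the 26512 on the array, 3 of them for Fcgr2b and a single probe for each other gene. All 8 passed the detection filter and all 6 genes were among the 9948 tested.

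All samples were labelled WT (wild type) and consisted of Lin- bone marrow, the fraction left when cells bearing mature lineage markers are removed. In the FLT3-ITD group (2 arrays) the cells had 48 h of signalling from FLT3-ITD, a form of the receptor kinase FLT3 with an internal tandem duplication that occurs in acute myeloid leukaemia. The pMIG group (2 arrays) carried the empty vector pMIG as the control. Mouse strain and age, the fraction of cells transduced and any pooling of animals were not given in the sources used here. Nor is it stated whether replicates came from separate cultures, so p-values reflect only how far these samples scatter, and that scatter may be technical.

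Fc receptors bind the constant part of antibodies and so link antibody to the cells that act on it. FcγRI, FcγRIII and FcγRIV, encoded by Fcgr1, Fcgr3 and Fcgr4, are activating receptors of myeloid cells, and natural killer cells carry FcγRIII too. They signal through the FcR γ chain, encoded by Fcer1g, whose activation motif (ITAM) recruits the kinase SYK. FcγRIIB, encoded by Fcgr2b, carries an inhibitory motif (ITIM) that recruits the phosphatase SHIP1 and damps that signal. FcRn, encoded by Fcgrt, works differently: together with β2-microglobulin it carries IgG and albumin out of acidic endosomes and spares them from lysosomal breakdown.

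The upstream sequences of Fcgr1, Fcgr3, Fcgr4 and Fcgr2b are shown because the activating receptors read higher in FLT3-ITD while the main probe of the inhibitory receptor did not. Each is the 250 bases before the RefSeq transcription start (GRCm38.p6), 5′ to 3′ on the gene's own strand. They lie at chr3:96293970-96294219 (minus strand), chr1:171059404-171059653 (minus), chr1:171018676-171018925 (plus) and chr1:170976072-170976321 (minus). Capitals mark matches on either strand to TTCNNNGAA, the form bound by STAT factors, or to GAGGAA, a core of sites of the myeloid factor PU.1, which reads TTCCTC on the other strand.
Fcgr1: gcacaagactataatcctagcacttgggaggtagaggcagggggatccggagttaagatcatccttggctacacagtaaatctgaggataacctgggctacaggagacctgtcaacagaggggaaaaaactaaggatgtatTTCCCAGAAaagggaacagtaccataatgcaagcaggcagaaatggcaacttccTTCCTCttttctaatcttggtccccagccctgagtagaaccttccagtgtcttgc
Fcgr3: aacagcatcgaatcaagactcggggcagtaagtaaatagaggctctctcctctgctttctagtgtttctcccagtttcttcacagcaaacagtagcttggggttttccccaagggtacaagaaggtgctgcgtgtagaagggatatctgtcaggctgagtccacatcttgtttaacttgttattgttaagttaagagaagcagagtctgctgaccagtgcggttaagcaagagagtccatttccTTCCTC
Fcgr4: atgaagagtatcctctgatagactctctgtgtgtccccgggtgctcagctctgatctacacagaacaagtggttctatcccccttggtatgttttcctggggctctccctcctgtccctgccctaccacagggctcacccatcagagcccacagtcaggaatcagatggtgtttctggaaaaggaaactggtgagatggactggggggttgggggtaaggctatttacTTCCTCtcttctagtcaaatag
Fcgr2b: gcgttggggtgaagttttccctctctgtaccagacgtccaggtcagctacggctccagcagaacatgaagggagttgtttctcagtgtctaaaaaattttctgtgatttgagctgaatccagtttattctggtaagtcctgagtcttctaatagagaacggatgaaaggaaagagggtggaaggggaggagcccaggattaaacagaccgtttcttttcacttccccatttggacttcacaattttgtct

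Of the members, Fcgr1 had a match to TTCNNNGAA, beginning at position -109 from the start, and the windows of the other 5 genes had 0. Among 32841 RefSeq windows of the same length, 7.02% held that motif. GAGGAA or its reverse complement was found in the windows of Fcgr1, Fcgr3 and Fcgr4 and in 23.3% of all windows. It began at -6 in Fcgr3, at -22 in Fcgr4 and at -55 in Fcgr1. The windows of Fcgr2b, Fcer1g and Fcgrt held neither set of letters. Fcgr3 has a second listed start, whose window held the same match at -15. A match is a run of letters and does not show binding.

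The series design asks which transcripts differ between cells with and without FLT3-ITD signalling. For the Fc receptors, 5 of 6 genes read higher on both FLT3-ITD arrays than on both pMIG arrays, where 23.8% of all genes tested did so and 50.6% had groups apart in either direction. The exception was Fcgr2b, whose groups overlapped on its brightest probe. None of the 6 passed an adjusted p of 0.05 in limma (0 of 6, against 0.191% of all genes tested, 0.171% higher and 0.0201% lower), and 2 of 6 had an unadjusted p under 0.05, against 18% of all genes. Their median log2 difference was 0.28, beside -0.02 for all genes tested. With a spread that depends on signal level (limma's variance trend), Fcgr1, Fcgr4 and Fcer1g passed as higher, which is 3 of 6 members against 5.07% of all genes higher and 10.2% called in either direction. In bulk RNA, a larger share of cells that express a gene and more of its RNA per cell cannot be told apart. With 2 arrays a group, an exact test of one gene cannot go below p = 0.333, so each p here rests on the spread that limma shares between genes.

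**Figure D1:**
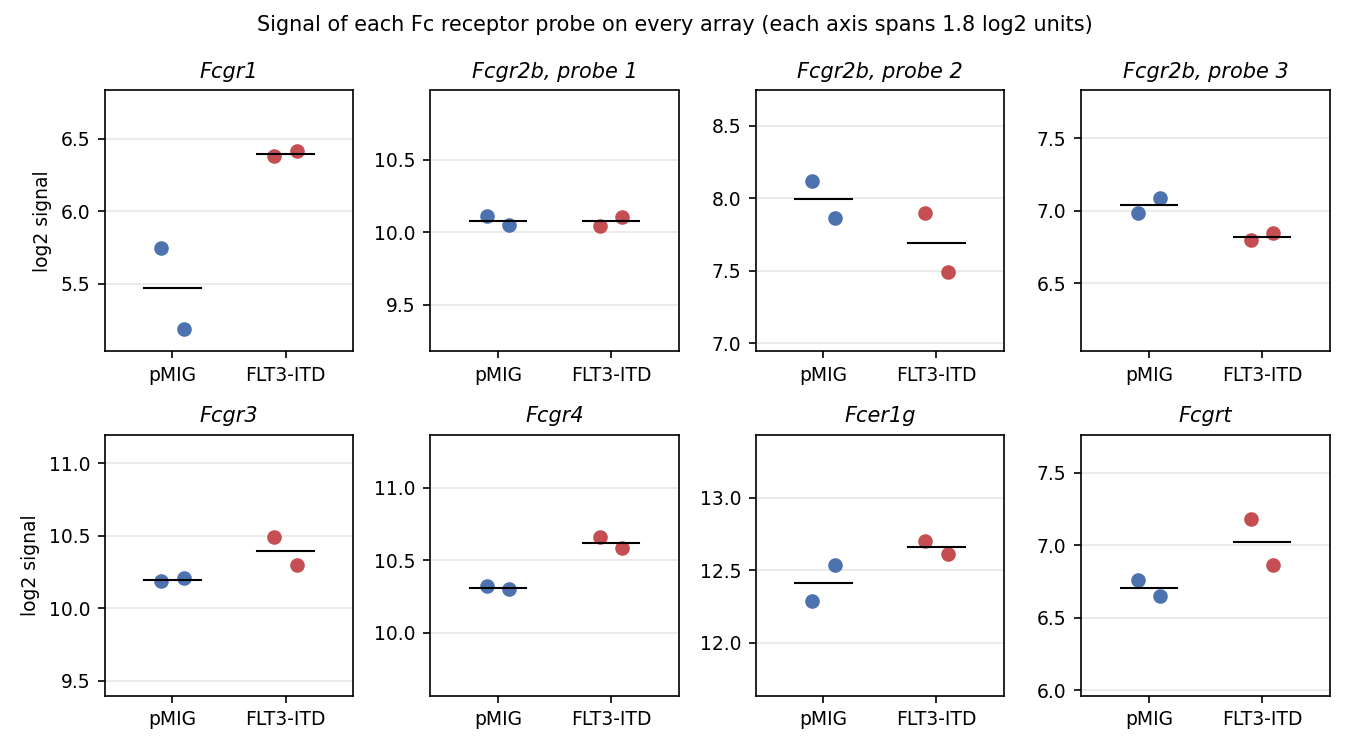
Background-corrected, normalized log2 signal (vertical axis) of the 8 probes on each array. Points are arrays, blue for pMIG and red for FLT3-ITD, and bars are group means (n = 2). Fcgr1 shows the widest gap between groups and the widest gap between the pMIG arrays, and the dimmer Fcgr2b probes, ILMN_3102376 and ILMN_3029178, lie lower in FLT3-ITD on average.

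Among the activating receptors, Fcgr1 had the largest difference of the 6 members. FcγRI is the high-affinity IgG receptor and binds antibody that is not in a complex. Its deposited intensities were 157.2 and 168.2 in FLT3-ITD against 140.8 and 114.6 in pMIG, where array medians were 103.1 to 107.9. After background correction and normalization these became log2 signals of 6.38 and 6.41 in FLT3-ITD against 5.75 and 5.19 in pMIG. Both FLT3-ITD arrays lay above both pMIG arrays, and the pMIG arrays were 0.55 apart, the widest replicate gap among the 6 genes. Fcgr1 was 1.91-fold higher in FLT3-ITD (95% interval 1.29 to 2.81; log2 difference 0.93, SE 0.21, adjusted p = 0.17 in limma). Counted from the largest increase in FLT3-ITD, its difference was 104th of the 9948 genes tested. This probe was dim, and its size depended on the background step: the log2 difference was 0.40 without background correction, where it passed (adjusted p = 0.0124). Without pMIG replicate 2, the lower of the controls, it was 0.66, and without pMIG replicate 1 it was 1.18.

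Fcgr4 encodes FcγRIV, a receptor of intermediate affinity for IgG2a and IgG2b. Its log2 signals were 10.66 and 10.59 in FLT3-ITD against 10.32 and 10.30 in pMIG, so the groups were apart by more than the gap within either. Fcgr4 read 1.24-fold higher in FLT3-ITD (95% interval 1.02 to 1.51; log2 difference 0.31, SE 0.11, adjusted p = 0.249 in limma). With the variance trend its adjusted p was 0.0123, and without background correction the log2 difference was 0.30 (adjusted p = 0.0449).

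Fcgr3 encodes FcγRIII, a low-affinity receptor that responds to immune complexes. It read 10.49 and 10.30 in FLT3-ITD against 10.19 and 10.21 in pMIG (log2 signal). The groups did not overlap, but FLT3-ITD replicate 2 lay closer to the pMIG arrays than to its own replicate. The log2 difference was 0.20 (SE 0.12, 95% interval -0.12 to 0.52, adjusted p = 0.459 in limma), and it did not pass with the variance trend either (adjusted p = 0.155). Fcgr3 and Fcgr2b share nearly the same extracellular sequence. Probe sequences were not used here, so how far their probes read each other's transcripts was not tested.

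Fcer1g, the signalling chain that the activating receptors share with the IgE receptor, gave log2 signals of 12.70 and 12.61 in FLT3-ITD against 12.29 and 12.53 in pMIG. The groups did not overlap, and pMIG replicate 2 lay close below the lower FLT3-ITD array. Fcer1g read 1.19-fold higher in FLT3-ITD (95% interval 0.926 to 1.52; log2 difference 0.25, SE 0.14, adjusted p = 0.414 in limma). With the variance trend its adjusted p was 0.0472. The difference was 0.12 without pMIG replicate 1 and 0.37 without pMIG replicate 2.

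Fcgr2b, the inhibitory receptor, was read by 3 probes, and none was higher in FLT3-ITD. The brightest probe, ILMN_1228657, gave 10.04 and 10.11 in FLT3-ITD against 10.11 and 10.05 in pMIG (log2 signal), with the arrays of both groups interleaved. Its log2 difference was -0.0057 (SE 0.11, 95% interval -0.29 to 0.28, adjusted p = 0.986 in limma), an interval that leaves room for a change of either sign. The platform annotation ties this probe to a different RefSeq transcript of the gene than the other probes. ILMN_3102376 gave 7.90 and 7.49 in FLT3-ITD against 8.12 and 7.87 in pMIG, and the groups overlapped. Its log2 difference was -0.30 (SE 0.19, adjusted p = 0.496 in the limma fit over all 14178 detected probes). ILMN_3029178 gave 6.80 and 6.84 against 6.99 and 7.09, with both FLT3-ITD arrays below both pMIG arrays, as for 25.6% of all detected probes. Its log2 difference was -0.22 (SE 0.12, adjusted p = 0.423 in the same fit). Which exons the probes cover is not known here, and neither probe passed.

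Fcgrt, the neonatal receptor gene, gave log2 signals of 7.18 and 6.86 in FLT3-ITD against 6.76 and 6.65 in pMIG. FLT3-ITD replicate 1 stood apart, and the other 3 arrays lay close together. The log2 difference was 0.31 (SE 0.15, 95% interval -0.09 to 0.72, adjusted p = 0.36 in limma). It was 0.16 without FLT3-ITD replicate 1, 0.48 without FLT3-ITD replicate 2 and 0.19 without background correction, and it did not pass with the variance trend (adjusted p = 0.331).

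**Figure D2:**
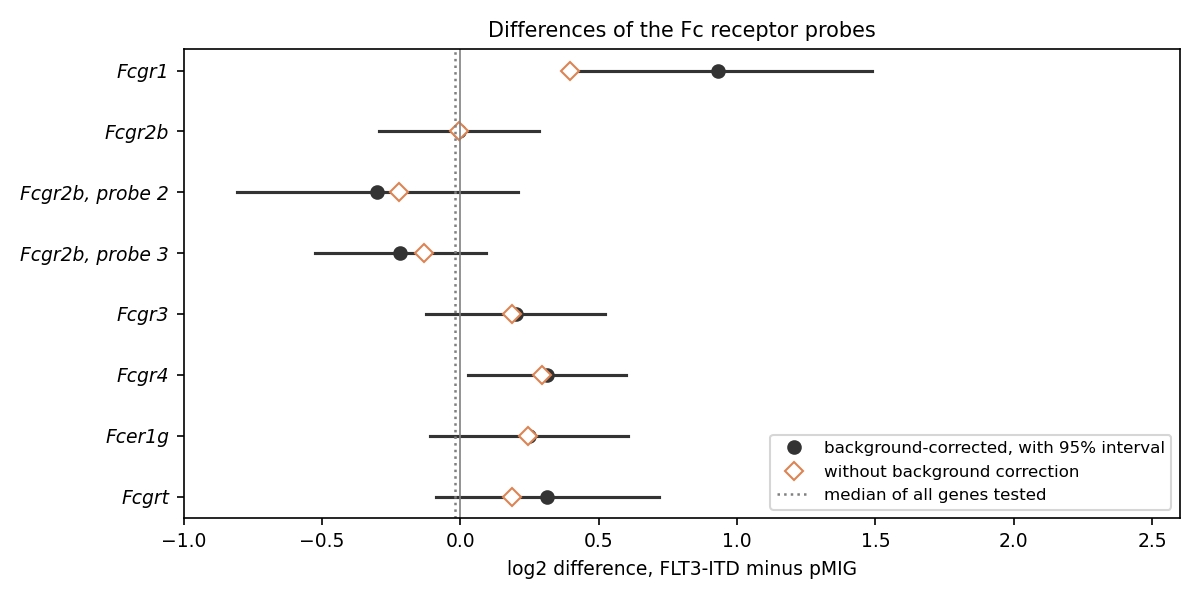
Log2 difference, FLT3-ITD minus pMIG (horizontal axis), for each probe. Black points with bars are the background-corrected differences with limma's 95% intervals, open diamonds are differences without background correction, and the dotted line is the median of all genes tested. The intervals of Fcgr1 and Fcgr4 lie above 0, and the diamond of Fcgr1 sits at 0.40 against its point at 0.93.

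Each member was also set against the main Fcgr2b probe on the same array, from the same normalized signals. Since that probe differed by -0.0057, these ratios restate the members' differences array by array and are not separate evidence. Only changes in such a ratio are read, since levels of different probes are not comparable. The log2 ratio of Fcgr1 to Fcgr2b was 0.94 higher in FLT3-ITD, that of Fcgr4 0.32 higher and that of Fcgr3 0.20 higher. For Fcgr4 the ratios were 0.62 and 0.48 in FLT3-ITD against 0.21 and 0.25 in pMIG. For Fcgr3 they were 0.45 and 0.19 against 0.07 and 0.16, so the second FLT3-ITD array lay barely above the controls. The groups did not overlap in any of these ratios, and with the dimmer Fcgr2b probes which themselves read lower, the differences were larger, 1.15 and 1.23 for Fcgr1, 0.53 and 0.61 for Fcgr4, and 0.42 and 0.50 for Fcgr3. These ratios were not tested.

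The other chains of the IgE receptor read lower in FLT3-ITD, where the shared one read higher. Fcer1a encodes the IgE-binding α chain of FcεRI, the receptor of mast cells and basophils, and Ms4a2 its β chain. Fcer1a gave log2 signals of 8.85 and 9.08 in FLT3-ITD against 9.89 and 9.78 in pMIG, with both FLT3-ITD arrays lower. Its log2 difference was -0.87 (SE 0.13, adjusted p = 0.123 in limma). Ms4a2 had mean log2 signals of 6.29 in FLT3-ITD and 7.32 in pMIG, with both FLT3-ITD arrays lower and a difference of -1.03 (SE 0.22, adjusted p = 0.163). The log2 ratio of Fcer1g to Fcer1a was 3.85 and 3.53 in FLT3-ITD against 2.40 and 2.75 in pMIG, which is 1.12 higher in FLT3-ITD. For Ms4a2 the ratio was 1.27 higher. The comparison of these ratios was chosen after the values were seen and was not tested.

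**Figure D3:**
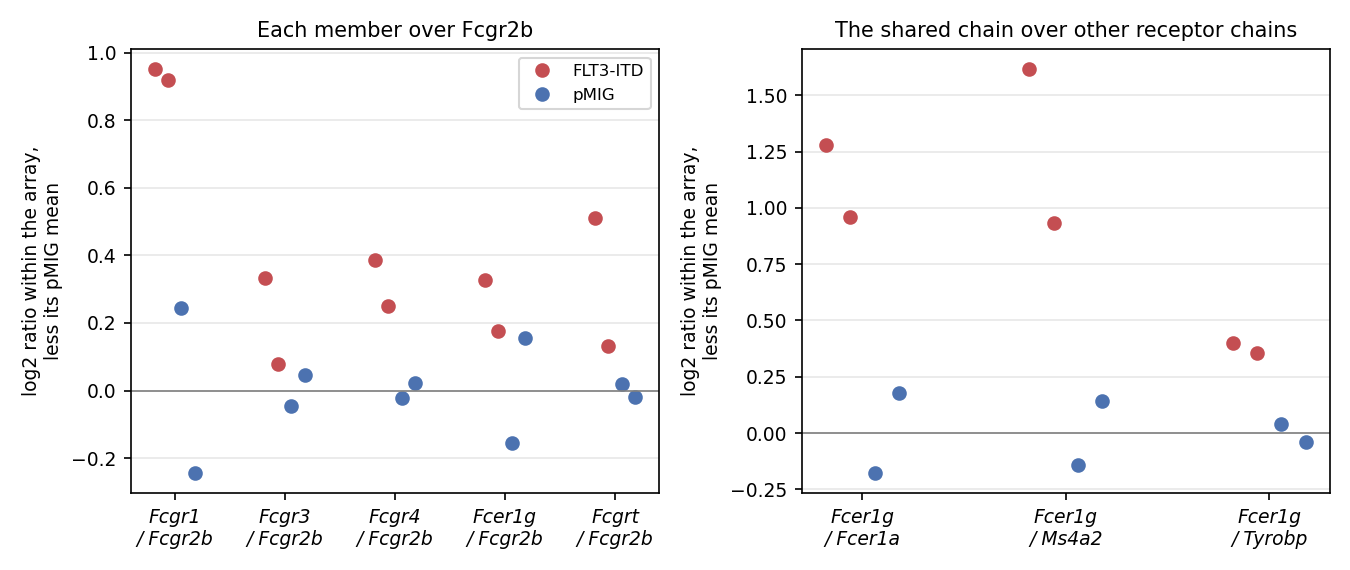
Log2 ratios of probes on the same array, each less its mean over the pMIG arrays (vertical axis), with arrays as points, blue for pMIG and red for FLT3-ITD. Left, each member over the main Fcgr2b probe. Right, Fcer1g over the IgE receptor chains Fcer1a and Ms4a2 and over the adaptor gene Tyrobp, where all red points lie above all blue points.

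Among other Fc receptors, 6 of 12 listed genes were tested, and 0 passed in either direction, where 0.191% of all genes did. Their median log2 difference was -0.64, or -0.27 without background correction, against -0.02 for all genes. Fcer1a, Ms4a2 and Fcmr, the IgM receptor gene, had both FLT3-ITD arrays lower (3 of 6, against 26.8% of all genes), and these 3 passed as lower with the variance trend, where 5.17% of all genes did. Fcmr had a log2 difference of -0.98 (SE 0.16, adjusted p = 0.126 in limma), or by -0.40 without background correction. Trim21, a cytosolic antibody receptor, differed by -0.07, and Fcrla and Fcrl1, expressed in B cells, differed by -0.41 and -0.01. The probes of Fcer2a, the low-affinity IgE receptor, and of Fcamr were not detected on any array.

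Signalling adaptors of activating receptors, and the receptors that use them, read higher or lower without a common direction. Of 11 tested, 5 were higher on both FLT3-ITD arrays and 3 lower (23.8% and 26.8% of all genes), with a median of 0.24 and 0 passing. The median was 0.064 without FLT3-ITD replicate 2, and with the variance trend 2 passed as higher and 1 as lower (5.07% and 5.17% of all genes). Trem1, which amplifies inflammatory signals through the adaptor DAP12, differed by 1.16 (SE 0.13, adjusted p = 0.076 in limma). Clec4n, which encodes Dectin-2, a lectin receptor that signals through the FcR γ chain, differed by 0.51 (adjusted p = 0.218), Lilra6 by 0.28 and Clec4d by 0.31. Tyrobp, the gene of DAP12, differed by -0.13 (adjusted p = 0.7), and Hcst, the gene of the adaptor DAP10, by -0.43 (adjusted p = 0.185). Neither pMIG array detected Cd300lb, which was higher in FLT3-ITD by at least 1.30-fold (adjusted p = 0.373), a bound set per array by the lowest detected signal. That bound holds for background-corrected signals, and without that step the log2 difference was 0.14. Cd300lb passed the detection filter only through the FLT3-ITD arrays, so in the counts above it is not evidence of a direction.

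Of the activating signalling genes downstream, 16 of 21 were tested, 9 were higher on both FLT3-ITD arrays and 0 lower (23.8% and 26.8% of all genes), with 0 passing and a median of 0.13. Pik3cd, a catalytic subunit of PI3K, differed by 0.29 (adjusted p = 0.348), or by -0.30 and 0.42 on its other probes. Fyn, a Src family kinase, differed by 0.39, the GTPase gene Rac2 by 0.27, Plcg2, a phospholipase, by 0.18 and the kinase gene Btk by 0.17. Syk was near background, with a log2 difference of 0.21 (SE 0.24, adjusted p = 0.709), and 0 probes were listed for Lyn. With the variance trend Pik3cd alone of the 16 passed, as higher, against 5.07% of all genes.

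Inhibitory signalling genes read in both directions. Of 15 tested, 6 were higher on both FLT3-ITD arrays and 4 lower (23.8% and 26.8% of all genes), the median was 0.18 and 0 passed. Dok2, an adaptor that restrains RAS signalling, differed by 0.60 (SE 0.11, adjusted p = 0.144 in limma), and Lilrb4a, an inhibitory receptor of myeloid cells, by 0.67 (adjusted p = 0.174), with a second probe at 0.21. Ptpn6, the gene of the phosphatase SHP-1, differed by 0.36 (adjusted p = 0.207) on its brightest probe and by -0.01 on another. Sirpa, an inhibitory receptor for CD47, differed by 0.30 and Cd300a by -0.49. Inpp5d, the gene of SHIP1 that FcγRIIB recruits, differed by 0.12 (SE 0.15, adjusted p = 0.724). With the variance trend 4 of the 15 passed as higher and 1 as lower, against 5.07% and 5.17% of all genes.

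B2m, the gene of the FcRn partner β2-microglobulin, was bright on every array, with log2 signals of 13.63 and 13.59 in FLT3-ITD against 13.52 and 13.56 in pMIG (log2 difference 0.07, SE 0.11, adjusted p = 0.782 in limma). Over the 8 tested genes of FcRn recycling the median was 0.01, with 2 higher and 2 lower on both FLT3-ITD arrays, near the shares of all genes (23.8% and 26.8%). Rab11fip5 differed by 0.25, Rab4a by -0.22, Rab11b by -0.10 and Rab7 by 0.11, and none passed. Among complement receptors, which also serve phagocytes, 4 of 8 were tested. Itgam, a subunit of complement receptor CR3, differed by 0.25 (adjusted p = 0.317) and its partner Itgb2 by 0.13. C5ar2 differed by 0.31 and Cr1l, a complement regulator, by -0.42, while C5ar1 was not detected on any array. C5ar2 and Cr1l were near background and differed by 0.09 and -0.12 without background correction. The other Cr1l probe differed by 0.01.

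Genes known to regulate Fc receptor genes, or the cytokine signals that reach them, mostly read higher in FLT3-ITD. Of 15 tested, 12 were higher on both FLT3-ITD arrays and 0 lower (23.8% and 26.8% of all genes), with a median of 0.36 and 0 passing, and 7 passed as higher with the variance trend (Ifng, Il10, Il10ra, Irf1, Jak2, Stat5a and Ifngr2), where 5.07% of all genes did. The median was 0.14 without background correction and 0.18 without pMIG replicate 2. It was also 0.18 among genes detected on all 4 arrays. Ifng and Il10 passed the detection filter only through the FLT3-ITD arrays, so in these counts they are not evidence of a shared direction. Ifng encodes interferon-γ, a known inducer of FcγRI. It was not detected in pMIG, and its background-corrected level in FLT3-ITD was at least 4.84-fold higher (adjusted p = 0.0506 in limma), and its second probe differed by 1.67. Without background correction the log2 difference of Ifng was 0.95, so that bound holds only for the corrected signals. Il10, the gene of interleukin-10, was also below detection in pMIG and at least 2.44-fold higher after background correction (adjusted p = 0.141). Its log2 difference was 0.42 without that step. Jak2, a kinase of interferon-γ and other cytokine receptors, differed by 0.74 (SE 0.11, adjusted p = 0.118) and by 0.75 on its other detected probe, and Il10ra by 0.55 (adjusted p = 0.154). Irf1, a transcription factor induced by interferon-γ, differed by 0.42 on its brightest probe (adjusted p = 0.189) and by 0.90, 0.93 and 1.45 on its other detected probes. Stat5a had probes of opposite sign: the tested one gave 0.44, while ILMN_2976188, also detected on all 4 arrays, gave -0.18. For Ifngr2 the tested probe gave 0.36, ILMN_1258300 gave 0.42 and ILMN_2592709 only 0.08. Spi1, the gene of PU.1, differed by 0.22 and Irf8 by 0.14, and Cebpa and Cebpb differed by 0.08 and -0.04 without passing. The part of these genes in the Fc receptor differences was not tested.

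**Figure D4:**
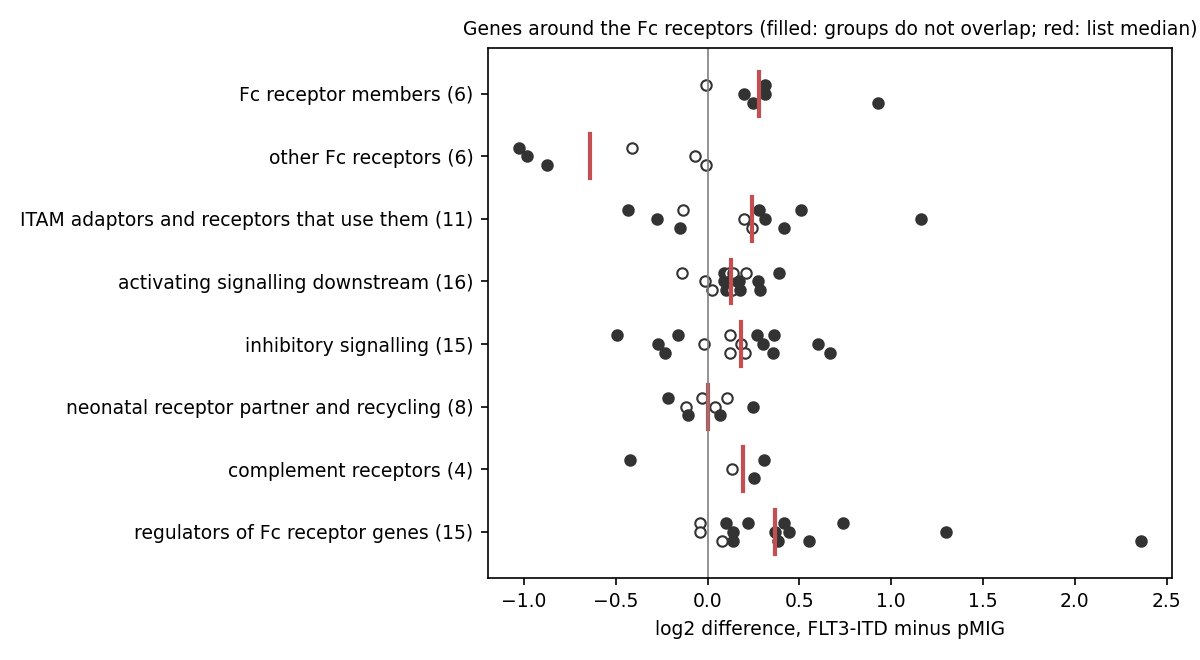
Log2 difference, FLT3-ITD minus pMIG (horizontal axis), of every tested gene in the member list and the lists around it, with the number tested in brackets. Filled points are genes whose groups do not overlap, open points are the others, and red lines are list medians. The members' median is 0.28 and that of the other Fc receptors -0.64.

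Cell types that carry Fc receptors were followed through marker lists. Of 13 monocyte and macrophage markers 10 were tested. Their median log2 difference was 0.04 and their summed signal 8959.5 and 9218 in FLT3-ITD against 10445 and 10336 in pMIG. The monocyte receptor gene Ccr2 was not detected on any array. Csf1r differed by 0.00 on its brightest probe, whose FLT3-ITD arrays read 6.89 and 7.54. On its other probe Csf1r differed by 0.44, or by 0.13 without background correction. The median was 0.28 without FLT3-ITD replicate 1, and 5 markers were higher and 1 lower on both FLT3-ITD arrays (23.8% and 26.8% of all genes). Lyz2, the brightest of them, carried the lower sum. Without it, a sum taken after the values were seen, the other 9 gave 2671 and 2699 against 2109.5 and 2296, higher on both FLT3-ITD arrays. Lyz2 differed by -0.35, and Mrc1 by 0.56, Cd68 by 0.43 and C1qb by 0.40. Of 12 neutrophil markers 11 were tested. Their sums overlapped, with 138010 and 137572 against 137369 and 137760. Cxcr2 and Mmp9, of mature neutrophils, differed by 1.46 and 0.92, and Mpo, of their precursors, by -0.43. Mmp8 differed by 0.56, or by 0.17 without background correction. Camp, Ltf and Ngp, also of this list, differed by -0.28, 0.07 and 0.03. The list median was 0.07, with 5 genes higher and 4 lower on both FLT3-ITD arrays (23.8% and 26.8% of all genes). Dendritic cell markers summed to 12065 and 12181 against 4944.0 and 5146, led by the MHC class II genes H2-Ab1, H2-Eb1 and Cd74, with a list median of 0.22, or 0.50 without pMIG replicate 1. Itgax and Cd209a were each detected on 1 array of each group and Xcr1 on none. B lymphoid markers summed to 1399.5 and 1448 against 766 and 774, with Ms4a1 not detected on any array. Mast cell and basophil markers summed to 15333 and 14344 against 18146 and 17386, with Cd200r3 at -1.19 and Prss34 at -0.83. Cd200r3 differed by -0.53 without background correction. Of the 8 tested, 6 were lower and 0 higher on both FLT3-ITD arrays (26.8% and 23.8% of all genes). Their median was -0.78, or -0.56 without background correction. Hdc, the brightest of them, differed by 0.08 and Gata2 by -0.0031, with overlapping groups. Natural killer and T cell markers summed to 3826 and 3882 against 4596 and 5323, and Ncr1, Cd4 and Cd8a were not detected on any array. Nkg7, the brightest of them, carried the lower sum. Without it, also a sum taken after the values were seen, the other 3 gave 934 and 897 against 845 and 929, which overlapped. Klrd1, which encodes the natural killer receptor subunit CD94, rose: its log2 signals were 7.61 and 7.37 in FLT3-ITD against 5.70 and 5.49 in pMIG (log2 difference 1.90, SE 0.15, adjusted p = 0.0482 in limma). It was the 1 gene of the 4 tested whose FLT3-ITD arrays were both higher (23.8% of all genes). Another 2 were lower on both (26.8% of all genes), and the list median of -0.11 was -0.27 without pMIG replicate 1. The part of these shifts in the Fc receptor differences was not tested.

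The label of the cells was checked against progenitor markers. Cd34, Myb, Gata2 and Meis1 were detected on all arrays, and no probe was listed for Kit or Ly6a. Gata2 is also in the mast cell and basophil list. Neutrophil markers were bright, with mean log2 signals for Ltf of 15.09 in FLT3-ITD and 15.02 in pMIG. For S100a8 they were 14.98 and 14.70. Detection of progenitor markers therefore does not show that mature cells were absent. Stem and progenitor markers had a median of -0.12, with Cd34 at -0.62 and Myb at -0.56, megakaryocyte markers one of -0.81 (-0.37 without background correction). Treml1, a platelet receptor gene of the megakaryocyte list, fell by 1.40 on the log2 scale (adjusted p = 0.0473 in limma). Of the 5 tested genes of that list, 3 were lower and 1 higher on both FLT3-ITD arrays (26.8% and 23.8% of all genes). The higher one, Itga2b, differed by 0.34, and by 0.47 on its other probe. Pf4, whose groups overlapped, differed by -0.24. Erythroid markers had a median of -0.04, with the haemoglobin gene Hba-a1 at 1.29 (adjusted p = 0.0734) and Epor, the erythropoietin receptor gene, at -0.64 (adjusted p = 0.126). No array detected the Flt3 probe (97.2 and 97.3 in FLT3-ITD, 96.1 and 97.2 in pMIG), and where it lies is not known, so it does not check the vector. Replicates correlated across genes at 0.992 and 0.991, with 13646 to 14176 probes detected on each array.

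Genes with the profile most like each member were found by distance between log2 signals centred over the 4 arrays, which is a description of 4 values. Nearest to Fcgr1 were Srebf1 and Pttg1 (distance 0.11 and 0.13), at log2 differences of 0.88 and 0.82. Nearest to Fcgr4 were Gyg and Fam47e, to Fcgr3 Tle1 and Copz1, and to Fcer1g Simc1 and Hr, all at distances of 0.0015 to 0.039. Nearest to Fcgr2b were Mrps18a and Ascc2 and to Fcgrt Tmem44 and Zfp276. Among the members themselves Fcgr3 and Fcgr4 were closest (0.14), and Fcgr1 and Fcgr2b were furthest apart (1.00).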

How the data were processed

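Total RNA from 4 samples was extracted with a microprep kit, labelled as biotinylated cRNA and read on Illumina bead arrays, per the labels' protocols. The authors deposited a non-normalized intensity per probe and array, each with a detection p-value, per the file headers. Scanner software and how that p-value was computed were not given in the sources used here. A second deposited table holds log2 values whose making is not stated. They kept the order of the intensities within each array (rank correlation 1), and were used only as an alternative.

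Background was removed from the intensities by normexp (limma 3.58.1, R 4.3.3, statmod 1.5.0), with the background's mean and spread inferred from detection p-values and 16 added as offset. Quantile normalization and a log2 transform followed. Signals are on that log2 scale and fold changes are 2 to the power of its differences. A probe was kept where at least 2 arrays had a detection p under 0.05, which left 14178 of 26512. Gene names came from the platform annotation, in which 2233 probes had no gene listed. The probe of highest mean over all arrays stood for its gene, which left 9948 genes. Older symbols of listed genes were matched through the RefSeq gene table (GRCm38.p6).

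Groups came from the sample titles. They were compared with limma's moderated test, two-sided. P-values were adjusted by Benjamini-Hochberg across all genes, or over all detected probes for the further Fcgr2b probes. These steps were tested on simulated arrays. Lists are described by counts and medians. The members, 7 lists and 9 marker lists were chosen with earlier results of these data known. Named genes are all members, up to 5 per list and up to 3 per marker list by smallest p, and for each member the 2 genes of nearest profile. Others, such as Syk, Spi1, Inpp5d, Tyrobp and B2m, were added for their role after values were seen, as were markers below detection. RefSeq promoter windows were searched without their bases after the start, and protein sequences were not used here. The number of arrays limits the precision.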

Additional observations from a re-analysis of the deposited data

How the results depend on the processing

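None of the 6 members passed under 10 of the 14 alternatives. In limma 2 members passed without background correction (Fcgr1 at 0.40 and Fcgr4 at 0.30 on the log2 scale), where 9.01% of all genes did. With an offset of 50, 1 passed (Fcgr1 at 0.59), against 3.89% of all genes. A variance trend passed 3, and so did a variance trend with robust fit (Fcgr1 at 0.93, Fcgr4 at 0.31 and Fcer1g at 0.25 in both). The shares of all genes passing in those fits were 10.2% and 10.5%. Fcgr1 was between 0.66 and 1.18 with any 1 array left out, Fcgr4 between 0.28 and 0.35, Fcer1g between 0.12 and 0.37, Fcgr3 between 0.10 and 0.29 and Fcgrt between 0.16 and 0.48. Fcgr2b changed sign around 0, from -0.038 without FLT3-ITD replicate 2 to 0.028 without pMIG replicate 1 (0.025 without FLT3-ITD replicate 1), and was -0.17 as the mean of its probes. The other 5 kept their direction in all 14 alternatives.

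The count of genes passing, 19 in the fit reported, was 896 without background correction, 387 with an offset of 50, 38 with the authors' deposited table, 71 with median scaling, 11 with no filter on dim probes, 71 with detection on all 4 arrays, 41 with the mean of a gene's probes, 1018 with a variance trend and 1040 with trend and robust fit. With any 1 array left out 0 genes passed in limma, with 1105 to 1338 at an unadjusted p under 0.05. A fit with a replicate block passed 6 genes and 0 members. Deviations of same-numbered arrays from their group means correlated at -0.018 across genes, so the numbers were not taken as pairs. Of 224 recomputed list medians, 204 moved by less than the typical gap between replicates. Where values changed, the cause was not tested. Dim probes such as that of Fcgr1 are limited by signal over background.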

Other observations

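In the RefSeq gene order, Fcgr2b, Fcgr4 and Fcgr3 are neighbours on chromosome 1 and Fcer1g lies a few genes further on. The stretch from Fcgr2b to Fcer1g holds 11 protein-coding genes, 4 of them members. Of the other 7, 2 were tested, and in both the groups overlapped. Sdhc, which encodes a subunit of succinate dehydrogenase, had a log2 difference of -0.11 (SE 0.13, adjusted p = 0.705 in limma). Cfap126, a gene of ciliated cells, was near background and differed by 0.02. This stretch was chosen after the members' values were seen.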
